A study of Mus musculus with 16 samples.

Results

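Of 10897 autosomal genes with enough allele-specific reads in 3 clonal mouse neural progenitor cell (NPC) lines, 309 genes (2.84%) changed allelic class from clone to clone, and these 309 genes are described here. The allelic ratio is the percent of allele-specific reads that come from the Cast allele. A gene was chosen when its ratio lay under 15% or over 85% in 1 clone (called monoallelic, or 1 active allele, below) and between 35 and 65% in another (biallelic), or when it was monoallelic from opposite alleles in a pair of clones. At least 20 allele-specific reads were required in each of the 3 clones. A total of 294 genes met the first condition, 27 genes (0.248% of those tested) met the second, and 12 met both. The ratios of the 3 clones chose the genes and are therefore given as a description, with no test.

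The clones are called F5, mG2 and mG6. All came from F1 hybrid embryonic stem cells of the strain 129Sv x Cast/EiJ, with a 129 maternal and a Cast paternal genome. F5 is female and came from the F1-21.6 line, while mG2 and mG6 are male and came from the F1-23 line. Each clone was picked from a progenitor population after limited dilution, grown with EGF and FGF2, and sequenced as 1 poly(A) library. Sex, parental line and clone therefore cannot be told apart between F5 and the other clones. A pair of ribosomal RNA-depleted libraries was made from each of 4 male NPC clones of the same cross (Ch3, Ch5, Ch7, Ch8; 8 libraries in all). There are also 5 poly(A) astrocyte libraries, 1 per clone (129, C2 and G4 female, mC3 and mE6 male), made from NPC clones with BMP4. The labels name no other treatment and no genetic change in any group.

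In a diploid cell most autosomal genes are transcribed from both parental copies. Imprinted genes use a copy set by its parent of origin, whereas random monoallelic genes use a copy that differs between clones and is kept through cell division. A clone is descended from a single cell, so an allelic choice that is inherited appears in bulk RNA of that clone. In bulk RNA, however, a ratio near 50% cannot tell cells that use both alleles from a mixture of cells that use either, and fewer cells of a type cannot be told apart from less RNA per cell.

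The upstream sequences of 5 of the 309 genes are shown first because they cover high, middle and low CG content, although genes with more and with fewer CG also occur in the set. Each run holds the 250 bases before the first annotated base of the gene, read 5′ to 3′ on the strand of the gene, from RefSeq on GRCm38.p6, with every CG dinucleotide in capitals. CG reads the same on both strands. Insig1, a regulator of cholesterol synthesis, has 34 CG (chr5:28071162-28071411, plus strand). Gria4, an AMPA-type glutamate receptor subunit, has 16 CG (chr9:4796235-4796484, minus strand). Rfc3, a subunit of the clamp loader of DNA replication, has 15 CG (chr5:151651209-151651458, minus strand). Hoxd8, a homeobox transcription factor, has 6 CG (chr2:74704365-74704614, plus strand), and Lipa, the lysosomal acid lipase, has 5 CG (chr19:34527475-34527724, minus strand).
Insig1: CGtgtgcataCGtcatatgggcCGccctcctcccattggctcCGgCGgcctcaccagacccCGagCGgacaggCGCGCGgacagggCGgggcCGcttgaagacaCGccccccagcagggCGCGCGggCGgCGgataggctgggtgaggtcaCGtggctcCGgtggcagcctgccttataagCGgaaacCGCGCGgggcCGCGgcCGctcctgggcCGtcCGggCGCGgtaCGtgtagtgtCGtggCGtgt
Gria4: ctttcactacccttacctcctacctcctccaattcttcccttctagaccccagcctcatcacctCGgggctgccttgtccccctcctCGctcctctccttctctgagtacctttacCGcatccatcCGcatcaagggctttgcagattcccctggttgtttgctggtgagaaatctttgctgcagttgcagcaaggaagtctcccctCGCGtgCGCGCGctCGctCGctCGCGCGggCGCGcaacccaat
Rfc3: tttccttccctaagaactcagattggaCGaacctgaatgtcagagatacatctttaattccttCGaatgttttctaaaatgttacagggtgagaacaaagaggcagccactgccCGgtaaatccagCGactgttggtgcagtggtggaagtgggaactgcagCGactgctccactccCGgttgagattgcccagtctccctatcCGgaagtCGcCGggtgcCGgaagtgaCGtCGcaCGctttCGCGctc
Hoxd8: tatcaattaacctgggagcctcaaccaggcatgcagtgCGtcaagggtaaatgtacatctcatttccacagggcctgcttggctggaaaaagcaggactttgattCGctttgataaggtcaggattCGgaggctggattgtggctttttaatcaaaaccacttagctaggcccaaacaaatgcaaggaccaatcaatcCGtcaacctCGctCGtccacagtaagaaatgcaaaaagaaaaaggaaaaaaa
Lipa: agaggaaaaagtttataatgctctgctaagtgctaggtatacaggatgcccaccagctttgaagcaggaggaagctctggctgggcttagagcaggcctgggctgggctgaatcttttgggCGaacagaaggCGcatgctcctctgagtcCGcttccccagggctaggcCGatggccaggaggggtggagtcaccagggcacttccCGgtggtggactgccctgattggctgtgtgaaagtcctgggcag

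A RefSeq upstream sequence was matched for 232 of the 309 genes and for 8698 of the 10897 genes tested. A gene with several listed starts was counted at the start with the most CG. The clone-variable genes held a median of 13 CG in the 250 bases upstream (quartiles 8 and 18.2), against 18 (quartiles 12 and 25) over all genes tested. At least 10 CG were present in 69.4% of the clone-variable genes, in 83.4% of the tested genes and in 40.9% of all 25748 autosomal genes with such a sequence. Fewer than 5 CG were found in 10.8% of the clone-variable genes and 5.23% of the tested genes. Gene spans were similar in the middle of the distribution, with medians of 24 kb and 25.8 kb. The clone-variable genes also had fewer reads, with a median of 153 allele-specific reads in the least covered clone against 758 over all tested genes, and the part of read number in the CG difference was not tested.

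The share of genes that qualified fell with coverage. It was 8.92% (71 of 796) among genes with 20 to 49 reads in their least covered clone, 6.95% (109 of 1569) with 50 to 199 reads, 2.20% (88 of 4003) with 200 to 999 reads, and 0.905% (41 of 4529) with 1000 or more. For 182 of the 309 genes the 95% Wilson intervals of the ratios, which cover counting error only, lay wholly inside the class limits. Just inside the limits were Astn2 (85.06% in F5), Adam15 (14.92% in F5) and Capn5 (14.77% in F5), and just outside were Sgsm1 (15.27% in F5), Zfp618 (84.52% in F5) and Lima1 (84.44% in mG2). Leaving aside chromosomes 12 and 18, on which a clone was set aside in part or in whole, the share by chromosome ran from 1.67% on chromosome 15 to 5.07% on chromosome 14.

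The poly(A) libraries held 105892734 (F5), 69925081 (mG2) and 81768235 (mG6) counted read pairs, of which 30.5 to 31.8% were assigned to an allele. Parts of 2 chromosomes were left out because their genes were shifted together. In F5 the windows of chromosome 12 from 80 Mb had median ratios of 73.3 and 73.4%, and in mG2 the windows of chromosome 18 had medians of 0.0594 to 0.0925%, where all other windows of the 3 clones had medians of 45.0 to 52.8%. The summed level of 10 NPC markers was 7420, 6870 and 5500 CPM (counts per 1000000 counted read pairs, after TMM scaling between libraries) in F5, mG2 and mG6, although the progenitor gene Nr2e1 was listed at 0 in all 3 clones. The summed levels of 6 astrocyte markers (111, 125 and 128 CPM), 6 oligodendrocyte-lineage markers (8.86, 24.2 and 28.6 CPM) and 4 pluripotency markers (5.49, 3.49 and 3.23 CPM) were lower, and 6 neuronal markers summed to 1010, 1510 and 1820 CPM, mostly from Map2. The NPC markers did not share the order of their sum. Fabp7 was at 2760, 2020 and 873 CPM in F5, mG2 and mG6, whereas Nes was at 1110, 1160 and 1710 CPM. The neuronal and oligodendrocyte-lineage sums were lowest in F5, the clone with the most monoallelic members, and their part in the results was not tested.

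Monoallelic expression of these genes was most frequent in F5. In F5, 201 of 308 members with a value were monoallelic (104 from 129 and 97 from Cast), in mG2 107 of 305 (49 and 58), and in mG6 66 of 309 (28 and 38). Over all tested genes, 4.13% were monoallelic in F5, 3.18% in mG2 and 2.74% in mG6. The clone that stood alone was F5 for 101 genes, mG2 for 33 and mG6 for 18, counting genes that were monoallelic in that clone and biallelic in both others. A single clone was monoallelic for 251 genes, a pair of clones for 51 (31 from the same allele and 20 from opposite alleles) and all 3 clones for 7. The count rests partly on F5, since comparing mG2 and mG6 alone gave 133 clone-variable genes.

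**Figure D1:**
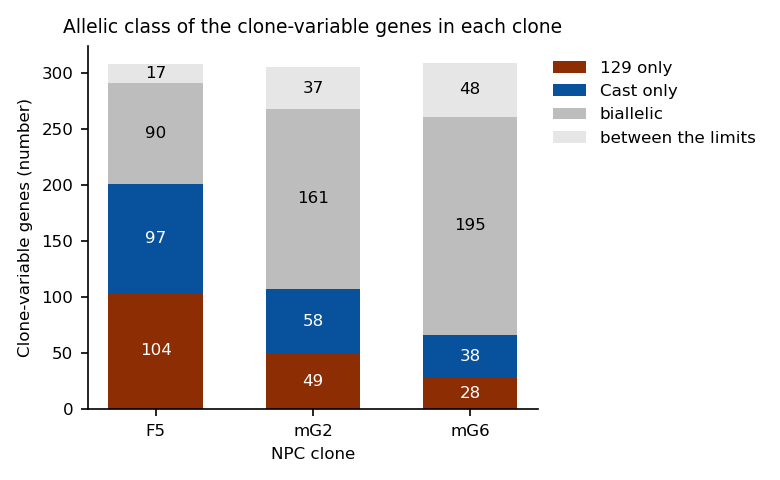
Number of clone-variable genes (vertical axis) in each allelic class, stacked for the clones F5, mG2 and mG6. Monoallelic genes number 201 in F5, 107 in mG2 and 66 in mG6, with 129 and Cast numbers of 104 and 97, 49 and 58, and 28 and 38.

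By comparison, 8737 tested genes (80.2%) were biallelic in every clone with a value, and 155 (1.42%) were monoallelic in every clone, 83 of them always from 129 and 64 always from Cast.

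Of the 12 genes that switched between opposite alleles and were biallelic in the remaining clone, 8 had their highest level in the biallelic clone. No such share was counted over all tested genes. The genes named next were picked by read number, and do not stand for all 12. Ttpa, which encodes the tocopherol transfer protein (chr4:20007894-20030822), had ratios of 99.9% in F5, 0.234% in mG2 and 50.5% in mG6, with levels of 24.5, 28.03 and 52.6 CPM. It used the Cast allele in F5, the 129 allele in mG2 and both in mG6, where its level was highest. Ssbp4, a single-stranded DNA-binding protein gene (chr8:70597485-70608387), was at 0.0917% in F5, 46.1% in mG2 and 95.01% in mG6, with levels of 26.9, 89.4 and 33.5 CPM. The biallelic clone again had the highest level.

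Tubb2a, a beta-tubulin gene, had ratios of 2.78, 59.9 and 99.2% in F5, mG2 and mG6, at 280.8, 353.6 and 202.5 CPM. Its coding sequence is close to that of Tubb2b, so reads may be shared and its values are uncertain. Fam184a was at 100, 14.9 and 51.7%, with 7.17, 9.34 and 17.0 CPM. Levels of all 4 genes were highest in the biallelic clone.

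A further 15 genes were monoallelic from opposite alleles with no biallelic clone. Slc38a1, a glutamine transporter gene, had 86.0% in F5, 11.6% in mG2 and 94.0% in mG6, with 142.7, 87.4 and 22.4 CPM. Pla2g7, a secreted phospholipase gene, had 86.7, 1.02 and 16.9%, with 16.8, 46.8 and 63.2 CPM. Smpdl3b had 98.7, 5.33 and 70.1%, with 21.9, 5.87 and 28.2 CPM. For Slc38a1 the clones with the highest and the lowest level used the same allele.

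Kcnj10, an inwardly rectifying potassium channel gene of glia, was at 9.66% in F5 and at 99.6 and 97.8% in mG2 and mG6, with levels of 3.42, 6.93 and 4.24 CPM. Zfp612, a zinc finger gene, had 100% in F5 and mG2 and 0% of 147 reads in mG6, which allows a Cast share of up to 2.04%. Its levels were 4.05, 4.15 and 3.11 CPM, so the clones with opposite alleles had similar levels. Acss3, an acyl-CoA synthetase gene, was at 25, 98.7 and 11.9%, with 2.02, 3.59 and 3.66 CPM.

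**Figure D2:**
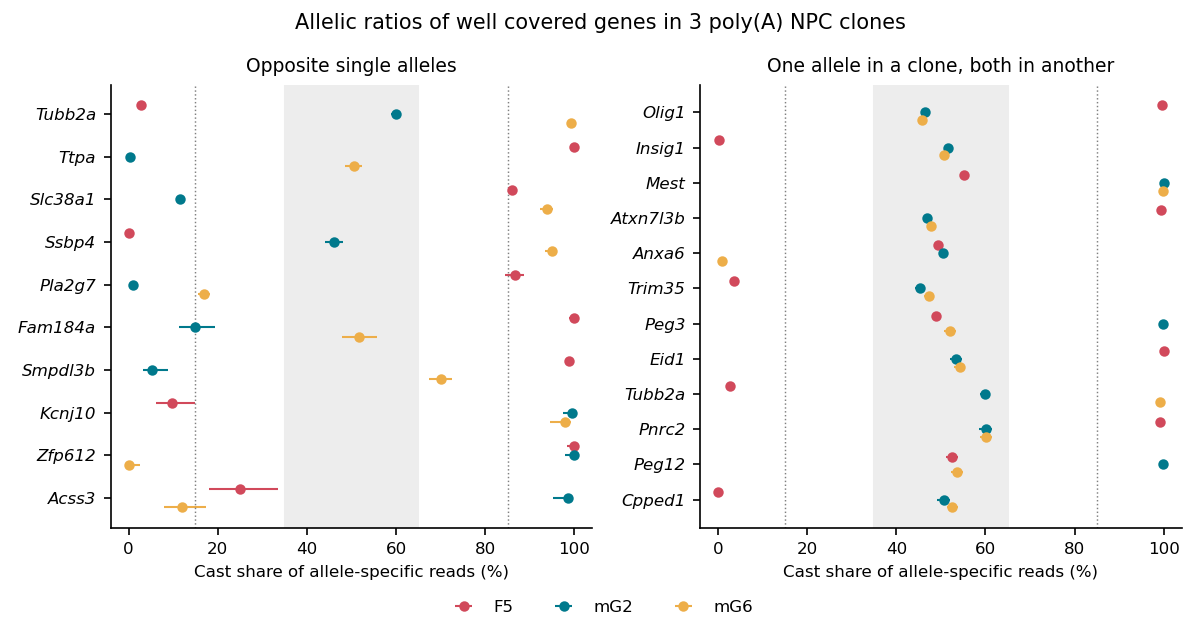
Cast share of allele-specific reads (horizontal axis, percent) in F5, mG2 and mG6 for the named genes, with 95% Wilson intervals that cover counting error only. The left group of genes used opposite alleles and the right group 1 and both alleles, with Tubb2a in both groups, a grey band from 35 to 65% and dotted lines at 15 and 85%. Ttpa lies at 99.9, 0.234 and 50.5% and Insig1 at 0.325, 51.7 and 50.8%.

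Among well covered genes that were monoallelic in F5 and biallelic in both other clones, the F5 level was lower in most. Insig1 (chr5:28071412-28078662) had ratios of 0.325, 51.7 and 50.8% in F5, mG2 and mG6, and its levels were 214.6, 319.7 and 557.2 CPM. Cpped1, a metallophosphatase gene, had 0.0283, 50.6 and 52.6% with 47.1, 95.4 and 123.2 CPM. Atxn7l3b had 99.5, 46.8 and 47.8% with 132.0, 303.9 and 271.3 CPM. All 3 genes had their lowest level in F5, from the 129 allele for Insig1 and Cpped1 and from the Cast allele for Atxn7l3b.

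Eid1, an inhibitor of differentiation, was at 99.98, 53.4 and 54.2% with 106.7, 183.4 and 199.7 CPM. Pnrc2, a nuclear receptor coactivator gene, was at 99.2, 60.1 and 60.1% with 90.2, 164.0 and 169.5 CPM. Trim35, a tripartite motif ubiquitin ligase gene (chr14:66297025-66311424), was at 3.67, 45.3 and 47.3% with 93.4, 158.7 and 159.9 CPM. In these genes too the clone with 1 active allele had the lowest level. Olig1, the oligodendrocyte-lineage transcription factor, differed from them. It was at 99.5% in F5, 46.4% in mG2 and 45.7% in mG6, whereas its levels of 1150, 1372 and 1095 CPM overlapped between the monoallelic and the biallelic clones.

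Anxa6, a calcium-dependent membrane-binding protein gene (chr11:54978953-55033471), was monoallelic in mG6 only. Its ratios were 49.3% in F5, 50.6% in mG2 and 0.970% in mG6, and its levels were 430.8, 319.2 and 177.1 CPM. The monoallelic clone was the lowest.

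The relation to total expression was measured in the 294 genes with a monoallelic and a biallelic clone, as the difference in log2(CPM + 0.5) between the mean of the monoallelic clones and the mean of the biallelic clones. The median difference was -0.84 (quartiles -1.36 and -0.22). The level was lower by more than 0.5 in 184 of the 294 genes (62.6%), where the same clone contrasts over 8330 genes biallelic in all 3 clones gave 12.7%. It was higher by more than 0.5 in 28 genes (9.52%), against 13.6% of the biallelic genes, and within 0.5 in 82. Of the lower genes, 121 lay between -1.5 and -0.5 and 63 below -1.5. The median of the biallelic genes over these contrasts was 0.03. With 1 library per clone these differences have no replicate check, and the genes share the same 3 libraries and are not independent. As a scale, 95% of the differences between the 2 libraries of a Ch clone for these genes were at or under 0.53 on the log2(CPM + 0.5) scale, with an SD of 0.26.

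The median was below 0 for each clone taken alone. In the 101 genes monoallelic in F5 alone the median was -0.88, with 73 genes lower and 1 higher by more than 0.5, where 13.7% and 16.3% of the biallelic genes were lower and higher in F5. In the 33 genes monoallelic in mG2 alone the median was -0.93, with 23 lower and 1 higher (background 7.20% and 5.76%). In the 18 genes monoallelic in mG6 alone it was -0.62, with 9 lower and 2 higher (background 9.99% and 11.5%). For the 43 genes monoallelic in a pair of clones the median was -0.96.

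**Figure D3:**
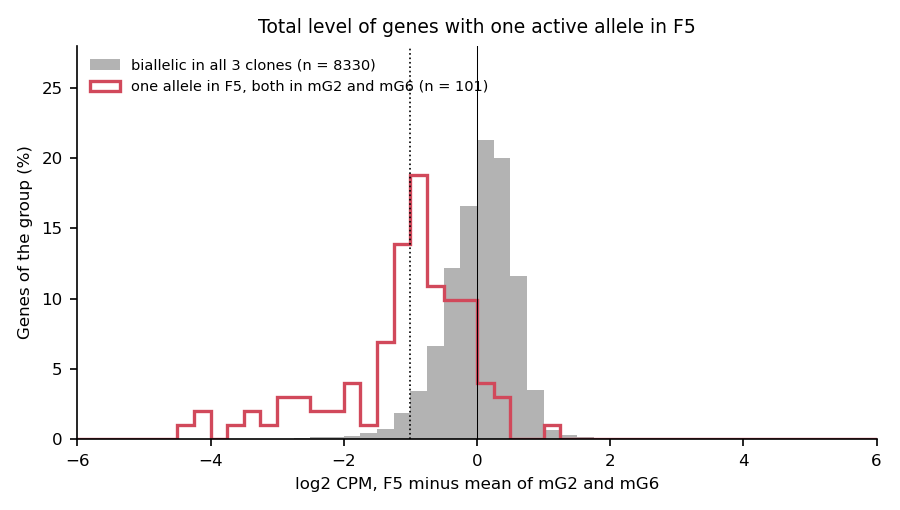
Percent of genes (vertical axis) by difference in log2(CPM + 0.5) between F5 and the mean of mG2 and mG6 (horizontal axis), for 101 genes monoallelic in F5 alone and 8330 genes biallelic in all clones. The dotted line marks a difference of -1, and the first group has a median of -0.88. Of the biallelic genes, 1 lies outside the axis.

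The active allele by itself was compared next, as the difference in the CPM of that allele (pseudocount 0.1) between monoallelic and biallelic clones. Its median over the 294 genes was 0.02 (quartiles -0.62 and 0.55). The difference was within 0.5 for 126 genes (42.9%), above 0.5 for 84 and below -0.5 for 84, where the level of a single allele was within 0.5 for 71.3%, above for 14.9% and below for 13.8% of the biallelic genes. The total and the active-allele difference of a gene are linked by arithmetic through the ratios that chose it, so a total about 1 lower at an unchanged active allele follows from the choice of genes. The data therefore add only the position of each gene along that line. For Insig1 the active 129 allele differed by 0.06 and the total by -0.97, for Eid1 the values were 0.06 and -0.84, for Atxn7l3b 0.04 and -1.12, for Pnrc2 0.04 and -0.88, and for Anxa6 -0.08 and -1.06. For Olig1 the active Cast allele was 1.05 higher and the total differed by -0.09.

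**Figure D4:**
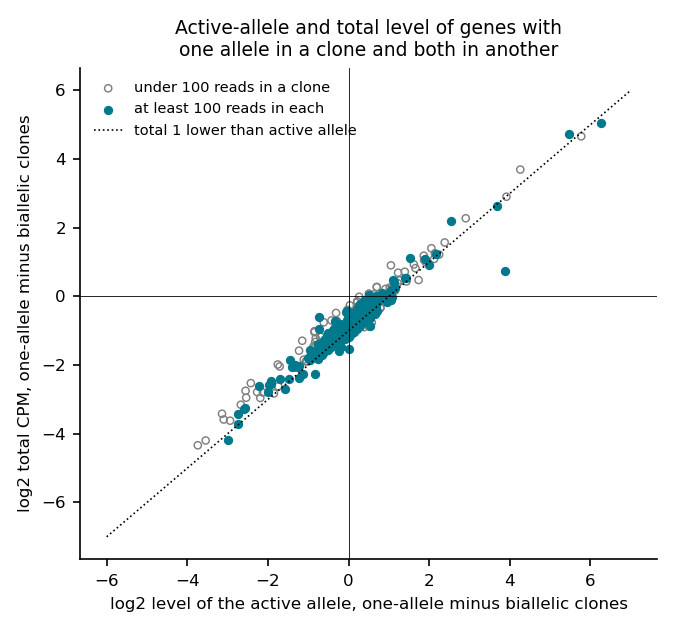
Difference between monoallelic and biallelic clones in log2 total CPM (vertical axis) against that of the active allele (horizontal axis) for 294 genes, each point a gene, with filled points for genes with at least 100 reads in each clone. The points follow the dotted line, on which the total is 1 lower than the active allele, and the medians are -0.84 (total) and 0.02 (active allele).

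The extremes of this distribution were far from a loss of 1 allele alone. Gria4 had a ratio of 97.2% at 15.7 CPM in F5, against 49.4 and 52.9% at 284.9 and 299.4 CPM in mG2 and mG6, a log2 difference of -4.18. Gas6, a ligand of TAM receptor kinases, was at 99.5 and 99.9% with 76.9 and 60.1 CPM in F5 and mG2, and at 61.9% with 729.7 CPM in mG6 (-3.41). In both genes the remaining allele was lower too in the monoallelic clones. Cacng5, a gene for an auxiliary subunit of AMPA receptors, was at 2.06, 71.3 and 56.1% with 4.83, 10.5 and 69.5 CPM (-3.72).

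Slitrk6, a neuronal transmembrane protein gene, was at 97.9, 64.4 and 67.3% with 3.35, 36.9 and 60.9 CPM (-3.28). In the other direction, Crispld2 was at 17.7, 55.9 and 4.11% with 5.73, 3.83 and 143.8 CPM (5.06). Chl1, a cell adhesion molecule of the L1 family, was at 49.7, 81.9 and 95.5% with 12.8, 162.7 and 352.6 CPM (4.73). The highest levels of Crispld2 and Chl1 were thus in the clone nearest to a single allele.

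Col9a3, a collagen IX chain gene, was also higher in its monoallelic clone, with 78.6, 35.3 and 13.4% at 71.0, 16.8 and 78.5 CPM in F5, mG2 and mG6 (2.19).

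Imprinted genes were represented by 8 of 34 tested genes of the list (23.5%, against 2.84% of all tested genes). Mest, the mesoderm-specific transcript expressed from the paternal copy, was at 55.2% in F5 and 99.96 and 99.9% in mG2 and mG6, with 3759, 1974 and 778.9 CPM. Sgce was at 55.4, 99.5 and 99.3% with 133.8, 55.1 and 75.4 CPM. Peg3, a zinc finger gene, was at 49.0, 99.8 and 52.1% with 195.7, 208.3 and 159.9 CPM. Peg3 thus had no lower level in the clone with 1 active allele, unlike Mest and Sgce.

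Ndn (58.3, 100 and 100%) and Snrpn (52.8, 99.8 and 100%) were biallelic in F5 only. Plagl1 was at 45.7, 99.6 and 17.3%, and Usp29 at 50.9, 99.2 and 52.7%. Peg12, an imprinted gene that was not on the list, was at 52.5, 99.9 and 53.6% with 173.0, 149.3 and 193.5 CPM. All of these were biallelic in F5 and close to Cast-only, the paternal genome of the cross, in mG2. Igf2r, which is expressed from the maternal copy in most mouse tissues, was at 63.4, 7.37 and 57.9%, and its level was highest in mG2 (130.1 CPM, against 9.61 in F5 and 43.1 in mG6). Over the 8 listed genes the median total difference was -0.13, with 3 lower and 2 higher by more than 0.5, and without them the median of the remaining 286 genes was -0.85.

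Receptors and adhesion molecules of the nervous system were represented in several families. Shares of the gene lists, imprinted genes included, were not matched for read number. Over all tested genes the share was 8.92% at 20 to 49 reads and 0.905% at 1000 or more. Of 22 tested glutamate and GABA receptor genes, 3 were clone-variable (13.6%, against 2.84% of all tested genes), among them Gria4 and Grin2c. Grin2c, an NMDA receptor subunit gene, switched from 100% (28 reads) in F5 to 0% of 244 reads in mG2 (up to 1.23%) and 2.098% in mG6, with 0.685, 9.12 and 5.18 CPM. Both genes had their lowest level in F5.

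Of 23 tested cadherin and non-clustered protocadherin genes, 4 were clone-variable (17.4%), and all 4 were monoallelic in F5 and biallelic in mG2 and mG6. Cdh20 was at 7.36% and 11.1 CPM in F5, and at 55.6 and 51.8% with 79.8 and 80.1 CPM in mG2 and mG6. Pcdh9 was at 87.4, 53.0 and 52.0% with 18.5, 98.9 and 129.3 CPM. Cdh19 (2.74, 10.9 and 24.2 CPM, 100% in F5) and Pcdh17 (24.6, 42.5 and 58.8 CPM, 0.712% in F5) had the same order, with F5 lowest.

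Homeobox and other patterning factors gave 6 of 36 tested genes (16.7%): En2, Hoxd8, Hoxd9, Irx1, Meis2 and Pax9. Hoxd8 was at 0.855, 49.6 and 48.2% with 12.2, 20.1 and 25.1 CPM, and its neighbour Hoxd9 at 0% of 109 reads in F5 (up to 2.75%), 47.5 and 57.4% with 2.45, 9.40 and 4.49 CPM. Both used the 129 allele alone in F5. En2, the engrailed-type midbrain factor, was at 0% of only 29 reads in F5 (up to 10.3%), 52.3 and 50% with 0.733, 32.3 and 18.4 CPM. Meis2 was monoallelic in mG6 (86.5%, 5.35 CPM) and Pax9 in mG2 (99.5%, 6.75 CPM), each at its lowest level of the 3 clones. Single members were found for MHC class I and antigen processing (Cd1d1, 1 of 11 tested), collagens (Col9a3, 1 of 20), integrins (Itga7, 1 of 12), neuron markers (Gad1, 1 of 5) and oligodendrocyte-lineage markers (Olig1, 1 of 4).

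Other families held no clone-variable gene. None was found among 49 tested axon guidance genes, 32 chaperones, 32 DNA methylation and chromatin repressor genes, 19 NPC markers, 14 housekeeping genes, 13 astrocyte markers, 2 pluripotency markers or 2 fibroblast markers. Among 72 ribosomal protein genes only Rps14 qualified, with processed copies elsewhere in the genome that make its allelic reads uncertain. Of the 13 genes singled out by the study, 8 had enough reads and 3 were clone-variable. Eya1, a transcriptional coactivator phosphatase gene, was at 93.7, 60.6 and 69.7% with 2.62, 8.80 and 5.58 CPM. Eya4 was at 30.3, 9.09 and 43.5% with 0.656, 5.89 and 2.56 CPM. Ptk2b, a focal adhesion kinase family gene (chr14:66153257-66281100), was at 87.6, 88.2 and 64.0% with 1.57, 1.41 and 1.15 CPM. Levels of all 3 genes were low. Each also had a Wilson interval that crossed a class limit, so the 3 calls rest on the measured ratios alone. The intervals were 53.8 to 66.97% for Eya1 in mG2 and 33.5 to 54.1% for Eya4 in mG6. For Ptk2b they were 79.6 to 92.8, 76.6 to 94.5 and 50.1 to 75.9% in F5, mG2 and mG6. Among the others, App, Bag3 and Eya3 were biallelic in each clone, and Eya2 was at 11.2, 30.9 and 12.8%. The study had picked most of these genes from earlier work as random monoallelic genes, so their number is not independent evidence. In its own clones the study found none with full monoallelic expression of Eya1. It found a single population with a large variance for Ptk2b, and counted Eya4 as random monoallelic.

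Position along the chromosome was not used to choose the genes. Another clone-variable gene lay within 500 kb for 90 of the 309 (29.1%), against 21.8% of the other tested genes. The 12 pairs within 10 kb of each other all shared the active allele in a clone. Of 13 pairs 10 to 100 kb apart, 6 shared it, 2 had opposite alleles and 5 had no common monoallelic clone, and of 29 pairs 100 to 500 kb apart the numbers were 10, 10 and 9. Some of the closest pairs overlap, such as Vax2 and its antisense gene Vax2os, and others are near-identical copies, such as Cd1d1 and Cd1d2. Counts were made by strand, and the values of such copies are uncertain because reads can be shared. A contrasting pair is Ptk2b and Trim35, 15.9 kb apart on chromosome 14, which in F5 were at 87.6% (Cast) and 3.67% (129).

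Genes next to the clone-variable ones were mostly biallelic. Of 745 ratios of the nearest tested genes in the monoallelic clone, 605 (81.2%) were biallelic, 60 (8.05%) came from the same allele and 11 (1.48%) from the other, where 87.4% of all 32198 ratios in the 3 clones were biallelic and 3.35% monoallelic from either allele. For Kdm8, Nsmce1 and Il4ra, which lie near each other on chromosome 7 and were named after their values were seen, F5 used the Cast allele alone (100, 99.9 and 100%) and both other clones were biallelic.

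The Ch clones, which took no part in the choice of genes, allow a test over replicate libraries. The question is whether genes that varied among the poly(A) clones also varied in allelic ratio among other NPC clones. Ch libraries held 20871111 to 30920672 counted read pairs, of which 18.9 to 21.1% were assigned to an allele. Of the 309 genes, 243 had at least 20 allele-specific reads in every Ch clone. The allelic ratio differed between the 4 clones for 90 of the 243 (37.0%) at an adjusted p under 0.05 (edgeR quasi-likelihood test with Benjamini-Hochberg adjustment over all genes tested), against 9.45% of all 10297 genes tested. Outside chromosome windows that were shifted as a whole in a Ch clone, the counts were 77 of 217 members and 5.92% of all genes. Among genes with at least 200 reads in each poly(A) clone they were 50 of 112 (44.6%) and 5.18%. Outside the shifted windows, the median range between the highest and the lowest Ch clone was 17.1 percentage points for 217 clone-variable genes and 6.54 for all 9273 genes. The ratios of the 2 libraries of a clone differed with an SD of 8.67 points over the clone-variable genes, and 95% of these differences were at or under 19 points, a value above the median range of the members. The labels do not say whether the 2 libraries of a clone came from separate cultures, so these p-values measure the spread between libraries, which may be technical.

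With the limits used for the poly(A) clones, 45 of 231 members with values in enough Ch clones were clone-variable there (19.5%), against 1.99% of all genes. Of these members, 7 were monoallelic from opposite alleles, which was not counted over all genes. Asb13, an adaptor of a ubiquitin ligase (chr13:3633589-3653822), was among these 7. Its ratios were 52.6 and 51.5% in the Ch3 libraries, 2.48 and 1.01% in Ch5, 48.9 and 54.4% in Ch7, and 100 and 99.0% in Ch8. Its levels were 20 and 21.4 CPM in Ch3, 10.4 and 10.4 CPM in Ch5, 22.7 and 19.6 CPM in Ch7, and 11.4 and 9.57 CPM in Ch8. Libraries with 1 active allele, whether 129 or Cast, did not overlap in level with those using both. The 4 log2 differences between a monoallelic and a biallelic clone lay between -1.03 and -1.001, with adjusted p of 0.000508 to 0.00117 (edgeR). In the poly(A) clones Asb13 was at 0.109, 51.6 and 46.1% with 20.1, 28.3 and 20.3 CPM in F5, mG2 and mG6, where F5 and mG6 had nearly the same level.

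Rfc3 (chr5:151642817-151651208) used the 129 allele in F5 (0.242%, 31.0 CPM) and both alleles in mG2 and mG6 (53.6 and 54.8%, 44.5 and 43.6 CPM). In Ch3 its ratios were 0% of 130 reads and 0.476%, in Ch5 0% of 216 and 0% of 200 reads, in Ch7 52.0 and 48.9%, and in Ch8 53.0 and 54.9%. The zeros allow Cast shares of up to 2.31, 1.39 and 1.5%. Levels were 21.5 and 21.5 CPM in Ch3, 21.9 and 23.4 CPM in Ch5, 48.6 and 49.97 CPM in Ch7, and 54.5 and 62.2 CPM in Ch8. No library of Ch3 or Ch5 reached the levels of Ch7 or Ch8, and the 4 differences of -1.42 to -1.13 had adjusted p of 5.96e-06 to 7.85e-05 (edgeR).

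Pttg1, the securin gene (chr11:43420244-43427463), was Cast-only in F5 (100%, 19.9 CPM), and at 50.7 and 51.7% with 25.6 and 21.9 CPM in mG2 and mG6. In the Ch clones it was at 48.4 and 47.1% in Ch3, 51.7 and 49.7% in Ch5, 99.7 and 99.8% in Ch7, and 99.8 and 100% in Ch8. Its levels were 36.6 and 38.0 CPM in Ch3, 42.6 and 54.5 CPM in Ch5, 23.5 and 23.4 CPM in Ch7, and 22.8 and 28.7 CPM in Ch8. The monoallelic libraries were all below the biallelic ones, with differences of -1.04 to -0.56 and adjusted p of 0.00118 to 0.0198 (edgeR).

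**Figure D5:**
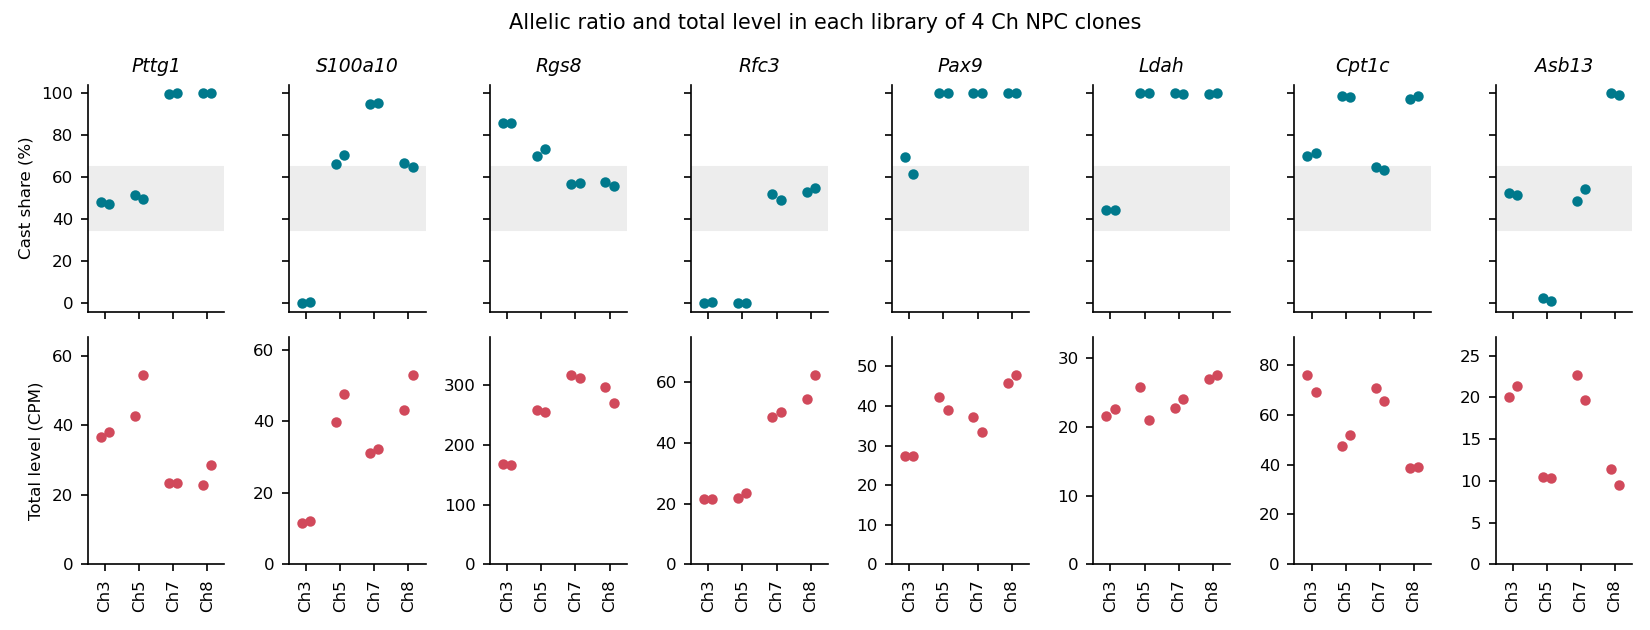
Allelic ratio (upper row, percent Cast) and total level (lower row, CPM) of 8 clone-variable genes in each of the 8 Ch libraries, each point a library, with grey bands from 35 to 65%. For Asb13 the libraries near 0 or 100% lie at 9.57 to 11.4 CPM and those in the band at 19.6 to 22.7 CPM. For Rfc3 they lie at 21.5 to 23.4 CPM and 48.6 to 62.2 CPM.

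S100a10, a calcium-binding protein gene that forms a complex with annexin A2, showed more than a pair of states. It was Cast-only in mG2 (99.8%) and at 57.7 and 58.8% in F5 and mG6. Its Ch ratios were 0% of 188 reads (up to 1.6%) and 0.725% in Ch3, 66.3 and 70.5% in Ch5, 94.8 and 95.3% in Ch7, and 66.5 and 64.6% in Ch8, at 11.5 and 12.1, 39.9 and 47.7, 31.1 and 32.2, and 43.1 and 52.9 CPM. Ch3, from the 129 allele, was lowest and Ch7, mostly from Cast, was next.

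Cpt1c, a brain carnitine palmitoyltransferase gene, was at 98.4 and 98.2% in Ch5 and 97.3 and 98.6% in Ch8, with 47.3, 51.8, 38.7 and 38.9 CPM. It was at 70.0 and 71.6% in Ch3 and 64.9 and 63.5% in Ch7, with 75.8, 68.8, 70.6 and 65.2 CPM, all above the former libraries. Rgs8, a regulator of G protein signalling, ranged from 85.6 and 85.9% in Ch3 to 56.5 and 57.2% in Ch7, with its lowest levels, 168.3 and 166.8 CPM, in Ch3.

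Pax9 and Ldah went against this order. Pax9 was at 69.6 and 61.3% with 27.3 and 27.4 CPM in Ch3, and at 99.7 to 100% with 33.3 to 47.8 CPM in the other Ch libraries. Ldah was at 44.4 and 44.6% with 21.6 and 22.6 CPM in Ch3 and at 99.6 to 100% with 21.0 to 27.5 CPM in the others. Both lie on chromosome 12, where windows of whole chromosome segments were shifted in Ch5, Ch7 and Ch8, so their ratios there cannot be told apart from the segment.

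Total expression between the Ch clones was tested for 300 of the 309 genes. It differed for 133 (44.3%) at an adjusted p under 0.05 (edgeR), against 16.6% of all 17095 genes tested and 18.6% of the genes tested in the poly(A) clones. Outside shifted windows the counts were 119 of 271 members and 17.7%, and with at least 200 reads in each poly(A) clone 69 of 129 and 18.2%. Of the 133 members, 66 also differed in allelic ratio, a share that was not counted over all genes. The counts of members and of all genes that differed in total expression both fell when either library of Ch3 or of Ch7 was left out.

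For 42 members a Ch clone was monoallelic and another biallelic. The median total difference was -0.78, with 31 genes (73.8%) lower and 5 (11.9%) higher by more than 0.5, where 1.70% and 1.51% of 7323 genes biallelic in every Ch clone were lower and higher over the same contrasts. These 42 genes gave 106 pairs of a monoallelic and a biallelic clone. The level was lower at an adjusted p under 0.05 (edgeR) in 61 pairs of 28 genes and higher in 10 pairs of 5 genes, where 4.60% and 4.48% of all genes tested were lower and higher over the same pairs. The 5 genes with a higher pair, named after their values were seen, were Chl1, Crispld2, Hepacam, Tpd52l1 and Csdc2. Pairs of a gene share libraries and are not independent. Ratios of the same libraries sorted the clones into classes, so the arithmetic link described for the poly(A) clones applies here too. A total about 1 lower at an unchanged active allele follows from that sorting.

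The astrocyte clones give the same comparison in another cell type, with 1 library per clone and no test. With values in at least 3 of the 5 clones, 152 of 272 members (55.9%) were clone-variable among astrocytes, against 7.09% of all 11561 genes and 4.76% of the tested genes that were not clone-variable in the NPC clones. Opposite alleles were used by 23 members (8.46%), against 0.778% of all genes. With at least 200 reads in each poly(A) NPC clone the counts were 79 of 124 members and 4.38%. In 37 members every astrocyte clone with a value was biallelic, and 26 members were clone-variable in the poly(A) NPC, Ch and astrocyte clones alike. Neither count was made over all genes.

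Named genes differed in this respect. Cpped1 was at 0.0802% in astrocyte clone 129 and at 100% in G4, and Trim35 at 100% in 129 and 0.626% in G4, so each used opposite alleles in that pair of clones. Insig1 was at 0.240% in C2, and Anxa6 at 0.771% in G4 and 1.74% in mE6. Olig1 and Atxn7l3b, which were Cast-only in F5, were biallelic in every astrocyte clone.

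The total level differed in astrocytes by a median of -0.88 between monoallelic and biallelic clones of 147 members. It was lower by more than 0.5 in 108 of them (73.5%) and higher in 14 (9.52%), where 11.5% and 10.6% of 6400 genes biallelic in every astrocyte clone were lower and higher. The astrocyte ratios sorted these clones into classes, so the same arithmetic link between ratio and total applies.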

How the data were processed

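RNA of 3 poly(A) NPC libraries, 8 rRNA-depleted NPC libraries and 5 poly(A) astrocyte libraries was sequenced in pairs from stranded libraries. The authors aligned reads to an N-masked GRCm38/mm10 genome with TopHat2 2.1.0 and Bowtie2, split them by strain variants with SNPsplit, and deposited counts of read pairs per gene (featureCounts 1.5.1) for the 129 allele, the Cast allele and all reads of 50600 genes. The gene annotation version is not given in the sources used here. The deposited fraction of Cast reads, given from 10 reads, equals the ratio of the counts within 5e-07 and was not used further. The study's methods state that biological replicates were merged, so a library may hold more than 1 culture.

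Genes were placed on GRCm38.p6 by symbol through a RefSeq table, and 679 of 11949 genes with 20 reads in the 3 clones had no position and 373 lay on chromosome X or the mitochondrial genome. Windows of 20 Mb with at least 10 genes were called shifted when their median lay outside 40 to 60%, and in the Ch and astrocyte clones their genes were set aside in the clone concerned. Levels are CPM scaled by TMM within each of the 3 sets, as log2(CPM + 0.5), so levels are compared only within a set. For the named genes the contrasts are differences on that scale, which understates changes of low genes. Allelic ratios between the Ch clones were tested in edgeR 4.0.16 with a clone-by-allele term and total counts with a clone term (quasi-likelihood, R 4.3.3), with DESeq2 1.42.0 as an alternative. The steps were tested on simulated data, with a spread that was set rather than estimated from the libraries. The allelic test recovered 196 of 200 genes changed by 40 percentage points in 1 Ch clone. It made 16 false calls over 10297 genes. The total-level test recovered 133 of 200 genes with a log2 fold change of -1 in 1 clone. It made 3 false calls over 16715 genes. Wilson intervals and the limit of 3 counts for a share of 0 cover counting error only, since reads carry no molecular identifiers. Numbers were handled in Python 3.11.15 with pandas 2.3.3 and scipy 1.17.1.

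The members, gene lists and tests were chosen with earlier results of these data known. Named genes are the 10 opposite-allele genes and the 12 genes with 1 and both alleles that had the most reads in the least covered clone, the 4 lowest and 4 highest in level among genes with 100 reads in each clone, the list members, the genes of the study, the 3 nearest to the class limits on each side, members within 500 kb of each other, and the 8 members with the smallest adjusted p between Ch clones. Alternatives were the read minimum, the class limits, the pseudocount, the scaling, each library left out, a filter on low counts, and others chosen after seeing the data. A few of the genes chosen in this way are left out of the text.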

Additional observations from a re-analysis of the deposited data

How the results depend on the processing

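The number of clone-variable genes was 309, and became 181 with limits of 5 and 95%, 182 with Wilson intervals inside the limits, 594 with the shifted chromosome regions kept, and 133 to 226 with a clone left out. The share of genes with a lower level in the monoallelic clones was 62.6%, and 55.9% with a minimum of 10 reads, 69.7% with limits of 5 and 95%, 72.1% with Wilson intervals inside the limits, and 60.3 to 64.3% with a clone left out. In the Ch clones that share was 62.5 to 81.0% and in the astrocytes 69.2 to 75.7% with a clone left out. Requiring 20 reads in all 5 astrocyte clones gave 99 of 158 clone-variable members, and leaving out a clone gave 118 to 125. With 1 Ch library left out, a clone keeps 1 library, which is assumed to vary like the others. Counts of called genes from these fits are therefore not given. DESeq2 called 69 members and 605 of all 10297 genes for the allelic ratio, and 136 members and 2881 of all 17095 genes for the total level. Without a filter on low counts, 173 members and 4361 of all genes were called for the total level. No direction reversed in these alternatives. The logarithms of low genes moved with the pseudocount: En2 from -4.88 (0.1 CPM) to -3.87 (1 CPM) and Gad1 from -4.03 to -3.19.

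Libraries of different Ch clones share only a replicate number: the correlation of their deviations ran from -0.244 to 0.375. With the replicate block, 90 members were called for the allelic ratio (960 of all genes) and 144 for the total level (3391 of all genes, against 2834 without it). For the 180 members with under 200 reads in a clone, counting error was not separated from variation between libraries.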
